A study of Rattus norvegicus with 10 samples.

Results

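Etv5 and 8 relatives in growth factor signalling were measured in the retina of newborn rats: Etv1 and Etv4, which with Etv5 form the PEA3 group of ETS transcription factors, the ERK phosphatase gene Dusp6, the Sprouty genes Spry1, Spry2 and Spry4, and the Spred genes Spred1 and Spred2. They are 9 of the 14324 genes with a singly named probe set, and each had 1 such probe set. The genes were chosen by family and on measured values: Etv5 had stood out in the comparison of SD hyperoxia with SD room air on these same arrays. Differences in that comparison, and values that contain it, are therefore given as a description without a test.

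The arrays held retinal RNA of rats at postnatal day 3. There were 2 pools of Sprague Dawley (SD) rats kept in cyclic hyperoxia, 3 pools of SD rats kept in room air, 3 pools of Fischer 344 (F344) rats kept in cyclic hyperoxia and 2 pools of F344 rats kept in room air. Exposed litters entered the chamber within 12 hours of birth and alternated between 24 hours at 80% oxygen and 24 hours at 21% oxygen. The series sets strains that resist and strains that are prone to oxygen-induced retinopathy side by side; 1 pool each joined SD room air and F344 hyperoxia later, on the strength of a principal component analysis of 8 arrays. Each pool combined 3 rats from 2 litters, so differences between single animals are averaged within an array and cannot be seen.

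Fibroblast, epidermal and platelet-derived growth factors bind receptor kinases that activate Ras, then Raf, MEK and finally the kinase ERK. Active ERK induces the PEA3 factors, which carry the signal to the genome, and it also induces its own inhibitors: Sprouty and Spred proteins act upstream, on Ras and Raf, and Dusp6 removes the phosphates from ERK itself. RNA of several of these genes, the Spred genes not among them, is widely used as a readout of fibroblast growth factor signalling in embryonic tissue, the eye included.

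Values are log2 expression values as deposited, to 1 decimal, so a step of 0.1 is the smallest difference that can be seen. Array medians lay between 5.9 and 6. On the first principal component the pools numbered 3, in F344 hyperoxia (30.08) and SD room air (36.41), stood apart from the other 8 (at or below -1.765). Markers of retinal cells were present, with list means of 9.56 to 9.85 for 10 measured progenitor genes, 9.26 to 10.1 for 7 photoreceptor genes and 8.05 to 8.58 for 8 ganglion cell genes over the 10 arrays.

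Sequences around transcript starts are shown for Etv5, Dusp6 and Spry4, 1 gene per role whose exposed SD pools were all below room air. They are RefSeq's for the build GRCr8, from 250 bases before to 50 bases after a start, 5′ to 3′ on the gene's strand. The table held 9 such windows for 8 of the 9 members (2 for Spry2), and Etv4 had none there. Capitals mark the letters searched for, on both strands: ACGTG or GCGTG, the core of a hypoxia response element, CCGGAA, an ETS core, and TGACG, one arm of a cAMP response element. The Etv5 window lies at chr11:92113013-92113312 (+ strand), that of Dusp6 at chr7:35979354-35979653 (+ strand) and that of Spry4 at chr18:30702497-30702796 (- strand). The Etv5 gene itself spans 92113171 to 92170758 of chromosome 11.
Etv5: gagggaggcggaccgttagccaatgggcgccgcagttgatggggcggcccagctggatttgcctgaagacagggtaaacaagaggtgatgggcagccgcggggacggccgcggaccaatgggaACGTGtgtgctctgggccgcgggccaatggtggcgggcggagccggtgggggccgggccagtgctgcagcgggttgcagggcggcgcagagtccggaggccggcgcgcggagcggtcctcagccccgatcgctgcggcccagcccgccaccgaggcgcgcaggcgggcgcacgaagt
Dusp6: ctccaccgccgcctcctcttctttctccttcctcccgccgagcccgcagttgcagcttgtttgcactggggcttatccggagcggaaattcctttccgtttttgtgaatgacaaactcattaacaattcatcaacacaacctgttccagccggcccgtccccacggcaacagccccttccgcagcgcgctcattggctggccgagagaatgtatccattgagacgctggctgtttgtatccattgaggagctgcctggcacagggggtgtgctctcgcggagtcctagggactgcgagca
Spry4: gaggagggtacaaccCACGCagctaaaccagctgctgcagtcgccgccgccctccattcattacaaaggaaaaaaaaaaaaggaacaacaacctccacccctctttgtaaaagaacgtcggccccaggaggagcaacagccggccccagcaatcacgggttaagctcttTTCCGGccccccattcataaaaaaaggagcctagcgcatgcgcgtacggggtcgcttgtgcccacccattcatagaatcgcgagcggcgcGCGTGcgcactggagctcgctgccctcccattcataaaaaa

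The Etv5 window held 1 hypoxia core, ACGTG, on the gene's strand, its first base at -127 from the start. The Spry4 window held 1 ETS core and 2 hypoxia cores, and the Dusp6 window held 0 of the letters searched. Of all 33469 windows in the table, 41.6% held a hypoxia core, 15% an ETS core and 21.2% the cAMP arm. The Etv1 window, like that of Dusp6, held 0 of them. Windows of Spred1 and Spry1 held 3 hypoxia cores each, and that of Spred2 held 1 and 1 cAMP arm. Of the windows of Spry2, 1 held 2 hypoxia cores and the other held 1 ETS core and 1 cAMP arm. A match is a string of letters and not a shown binding site.

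Etv5 was lower in hyperoxia in both strains and had the largest difference of the 9 genes in each. It read 6.7 and 6.9 in the SD hyperoxia pools, against 7.5, 7.6 and 7.8 in the SD room-air pools. The F344 hyperoxia pools had 7.0, 6.9 and 6.7, against 7.5 and 7.3 in the room-air pools. The groups overlapped in neither strain: the highest exposed pool lay 0.6 below the lowest room-air pool in SD and 0.3 below it in F344. The mean difference was -0.83 in SD (SE 0.13, 1.78-fold lower, 2 against 3 pools), as a description, since Etv5 was chosen there.

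In F344, whose arrays are not part of the SD comparison, Etv5 was lower by 0.53 on average (difference -0.53, SE 0.13, 95% interval -0.82 to -0.24, 1.45-fold lower), and it did not pass by limma after adjustment over all 27342 probe sets (adjusted p = 0.921). The F344 difference of Etv5 lay between -0.63 and -0.43 with each array left out in turn and was -0.45 without both pools numbered 3. Of the 9 genes 0 passed in F344 by limma, beside 0.00366% of all probe sets. Unadjusted p-values under 0.05 were found for 3 of the 9, Etv5, Dusp6 and Spred1, and for 4.83% of all probe sets.

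In order, Etv5 stood highest in SD room air, then F344 room air, F344 hyperoxia and SD hyperoxia. The neighbours SD and F344 room air overlapped at 7.5, and the hyperoxia groups of both strains overlapped too; the single step without overlap was the one between exposed and unexposed F344. The difference of the hyperoxia effects, SD minus F344, was -0.30 (SE 0.19), given without a test.

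**Figure D1:**
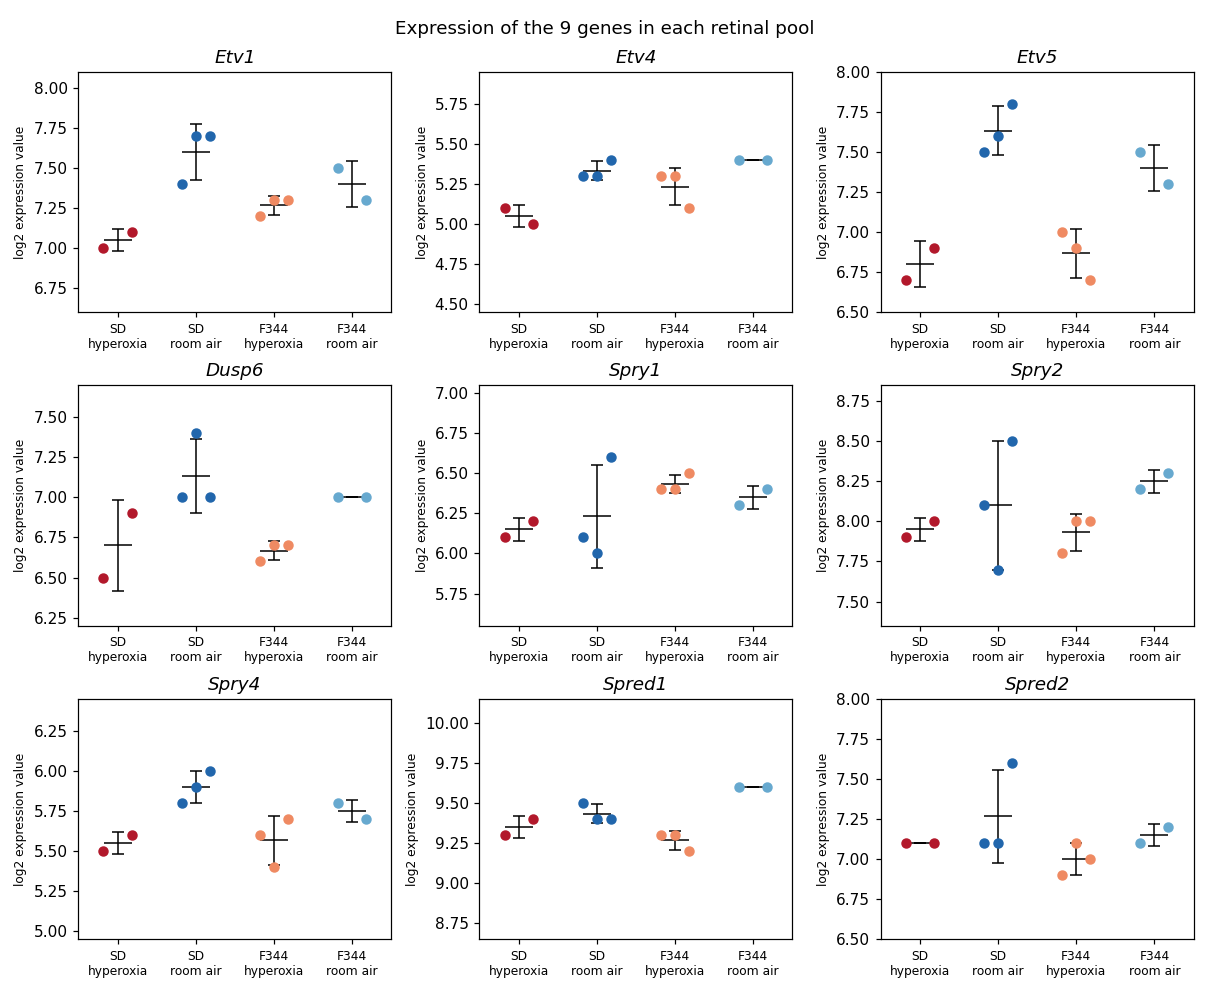
Log2 expression value (vertical axis, spanning 1.5 log2 units in each panel) of the 9 genes in SD hyperoxia, SD room air, F344 hyperoxia and F344 room air. Points are pools, horizontal bars group means and error bars SD; for Etv5 the exposed pools lie at 6.7 to 7.0 and the room-air pools at 7.3 to 7.8.

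Among the other PEA3 factors, Etv1 was the member whose exposed pools differed most from room air in SD after Etv5. Etv1, an activator that also marks some neuron types, read 7.0 and 7.1 in SD hyperoxia, against 7.4, 7.7 and 7.7 in SD room air, a gap of 0.3 without overlap and a mean difference of -0.55 (SE 0.12). Its F344 values were 7.2, 7.3 and 7.3 in hyperoxia, against 7.5 and 7.3 in room air, and there the groups met at 7.3 (difference -0.13, SE 0.12, adjusted p = 0.921 by limma). That F344 difference was -0.03 without F344 room-air pool 1 and -0.23 without F344 room-air pool 2. The difference of the hyperoxia effects on Etv1, SD minus F344, was -0.42 (SE 0.17, not tested), and it ranged from -0.52 to -0.32 with each array left out in turn.

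Etv4, the factor that gave the PEA3 group its name, read 5.1 and 5.0 in SD hyperoxia, against 5.3, 5.3 and 5.4 in SD room air (difference -0.28, SE 0.11). The F344 pools had 5.3, 5.3 and 5.1 in hyperoxia, against 5.4 in both room-air pools (difference -0.17, SE 0.11, adjusted p = 0.921 by limma). The exposed pools were below the room-air pools in both strains, but in F344 by 0.1, a single step of the deposited values. The F344 difference of Etv4 was -0.10 without F344 hyperoxia pool 3. Etv4 lay below the array medians in every pool, and its signal over background was not analysed here.

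Dusp6, the gene of the phosphatase that acts on ERK, was lower in exposed pools of both strains. It read 6.5 and 6.9 in SD hyperoxia, against 7.0, 7.4 and 7.0 in SD room air (difference -0.43, SE 0.15). Its level in F344 was 6.6, 6.7 and 6.7 in hyperoxia, against 7.0 in both room-air pools (difference -0.33, SE 0.15, 1.26-fold lower, adjusted p = 0.921 by limma). No exposed pool reached a room-air pool of its strain, with a gap of 0.1 in SD and 0.3 in F344. The SD difference of Dusp6 was -0.23 without SD hyperoxia pool 1 and -0.63 without SD hyperoxia pool 2.

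The Sprouty genes encode inhibitors that ERK signalling switches on. Spry4 read 5.5 and 5.6 in SD hyperoxia, against 5.8, 5.9 and 6.0 in SD room air, without overlap (difference -0.35, SE 0.12). In F344 Spry4 read 5.6, 5.4 and 5.7 in hyperoxia, against 5.8 and 5.7 in room air, so that the groups met at 5.7 (difference -0.18, SE 0.12, adjusted p = 0.921 by limma). Without F344 hyperoxia pool 2 the F344 difference of Spry4 was -0.10.

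Spry2 separated in F344 and overlapped in SD. It read 7.9 and 8.0 in SD hyperoxia, against 8.1, 7.7 and 8.5 in SD room air (difference -0.15, SE 0.18). F344 values were 7.8, 8.0 and 8.0 in hyperoxia, against 8.2 and 8.3 in room air (difference -0.32, SE 0.18, adjusted p = 0.921 by limma).

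Spry1 overlapped in both strains, with 6.1 and 6.2 in SD hyperoxia, against 6.1, 6.0 and 6.6 in SD room air (difference -0.08, SE 0.15). In F344 it read 6.4, 6.4 and 6.5 in hyperoxia, against 6.3 and 6.4 in room air, the single difference above 0 among the 9 genes there (0.08, SE 0.15, adjusted p = 0.96 by limma, and -0.025 with a term for the pools numbered 3).

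Spred1 and Spred2 encode membrane proteins that bring neurofibromin, which switches Ras off, to its target. Spred1 read 9.3, 9.3 and 9.2 in F344 hyperoxia, against 9.6 in both F344 room-air pools (difference -0.33, SE 0.10, 95% interval -0.55 to -0.12, adjusted p = 0.921 by limma). In SD it read 9.3 and 9.4 in hyperoxia, against 9.5, 9.4 and 9.4 in room air, and the groups met at 9.4 (difference -0.08, SE 0.10). Spred2 read 7.1 in both SD hyperoxia pools, against 7.1, 7.1 and 7.6 in SD room air (difference -0.17, SE 0.15). F344 pools read 6.9, 7.1 and 7.0 in hyperoxia, against 7.1 and 7.2 in room air (difference -0.15, SE 0.15, adjusted p = 0.929 by limma).

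SD room-air pool 3 carried the highest value of Spry1 (6.6), Spry2 (8.5) and Spred2 (7.6) of all 10 arrays. Without that pool the SD differences were 0.10 for Spry1, 0.05 for Spry2 and 0 for Spred2. Without SD room-air pool 2 they were -0.20 for Spry1, -0.35 for Spry2 and -0.25 for Spred2. With group means removed, these 3 genes correlated over the 10 arrays (Pearson r = 0.91 for Spry1 with Spry2, 0.91 for Spry1 with Spred2 and 0.86 for Spry2 with Spred2), a description in which that pool weighs most. In the same pool the mean of 9 cell cycle genes was 8.83, against 9.29 and 9.34 in the other SD room-air pools, and the mean of 5 lens genes was 6.5, against 5.0 and 5.86. Its photoreceptor mean was 10.1, against 9.39 and 9.73, and its endothelial mean 5.34, against 4.95 and 5.13. F344 hyperoxia pool 3 also had a low cell cycle mean (8.92) and a photoreceptor mean of 10.1, and F344 hyperoxia pool 2 a lens mean of 6.44. In F344 hyperoxia pools 3 and 2, Spry1 read 6.5 and 6.4, Spry2 8.0 in both and Spred2 7.0 and 7.1. The shift fitted for the pools numbered 3 was 0.325 for Spry1, 0.35 for Spry2 and 0.25 for Spred2 (SE 0.11, 0.13 and 0.11). The part of these cells in the Sprouty and Spred values was not tested.

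**Figure D2:**
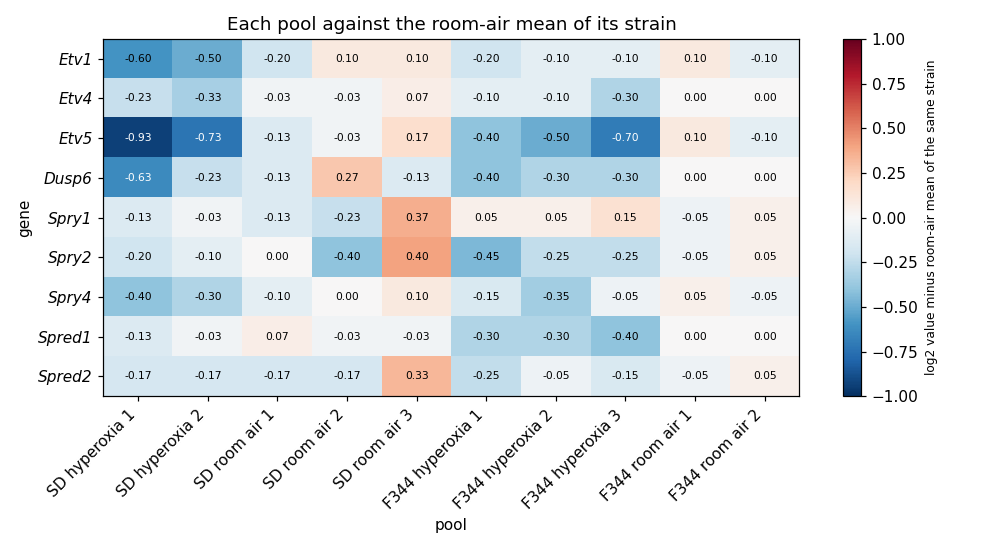
Each pool's log2 value minus the room-air mean of its own strain, for the 9 genes (rows) and 10 pools (columns), with blue for lower and red for higher. Etv5 ranges from -0.93 to -0.40 over the 5 exposed pools, and SD room-air pool 3 stands out with 0.37 for Spry1, 0.40 for Spry2 and 0.33 for Spred2.

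Counted together, 5 of 9 genes in SD (Etv1, Etv4, Etv5, Dusp6 and Spry4) had every exposed pool below every room-air pool. The same held for 8.06% of all probe sets. Nothing is read from this SD count, since Etv5 was chosen in that comparison and the members with earlier results of these data known. In F344 it was again 5 of 9 (Etv4, Etv5, Dusp6, Spry2 and Spred1), against 6.32% of all probe sets. Without both pools numbered 3 the counts were 5 in SD and 6 in F344. With fewer pools, groups separate more easily, and the shares given here are for all pools. Nothing is read from the counts without those pools. Etv4, Etv5 and Dusp6, 3 of the 9, were lower without overlap in both strains, as were 0.479% of all probe sets. That joint count contains the SD comparison, so it is a description and nothing is read from it either. The median difference of the 9 genes was -0.28 in SD and -0.18 in F344, beside a median of 0 over all 14324 genes in each strain.

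**Figure D3:**
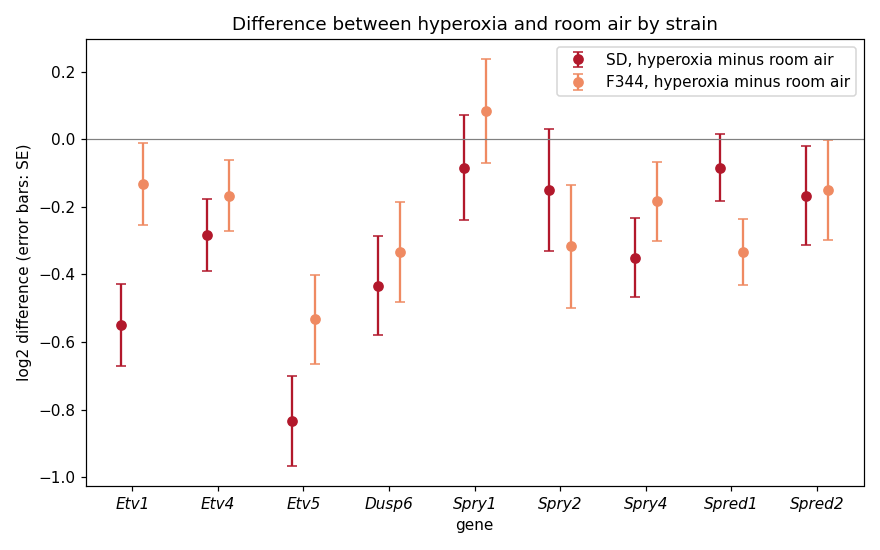
Log2 difference, hyperoxia minus room air, for each of the 9 genes in SD and in F344, with error bars of 1 SE from the fit. All 9 SD values lie below 0, as do 8 of the 9 F344 values, beside 46.0% and 48.2% of all 14324 genes. Etv5, which was chosen in SD, is lowest in both strains (-0.83 and -0.53). Nothing is read from the SD count.

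The strains were also compared at the same exposure. These comparisons use the SD pools on which Etv5 was chosen, so its values in them are a description without a test, and those of the other genes share these pools. In room air 0 of the other 8 genes passed between SD and F344 by limma, with 0 at an unadjusted p under 0.05, beside 0.556% and 11.4% of all probe sets. Etv5 differed by 0.23, SD minus F344 (SE 0.13), and Etv1 by 0.20 (SE 0.12, 95% interval -0.06 to 0.46, adjusted p = 0.561). Spred1 was the single gene with every SD pool below every F344 pool in room air, with 9.5, 9.4 and 9.4 against 9.6 and 9.6 (difference -0.17, SE 0.10, adjusted p = 0.551), where 9.81% of all probe sets were lower in this way.

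In hyperoxia 0 of the other 8 genes passed between SD and F344 by limma, and 0 had an unadjusted p under 0.05, beside 0.457% and 6.64% of all probe sets. Etv1 (7.0 and 7.1 in SD, 7.2 to 7.3 in F344, difference -0.22, SE 0.12, adjusted p = 0.836) and Spry1 (6.1 and 6.2 in SD, 6.4 to 6.5 in F344, difference -0.28, SE 0.15, adjusted p = 0.815) had every SD pool below every F344 pool, as had 7.12% of all probe sets. For Etv5 the difference was -0.07 (SE 0.13), which does not show that the exposed strains were alike.

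The signalling steps around these genes were read from lists of 105 measured genes out of 120 listed. Beside the counts below 0 given for these lists, 46.0% of all 14324 genes lay below 0 in SD exposure and 48.2% in F344 exposure. In SD and in F344 exposure and in both strain comparisons 0 of these 105 passed by limma, while 12 probe sets of the whole table passed in SD (0.0439%). An unadjusted p under 0.05 was found for 5 of them in SD exposure (4.76%, beside 5.95% of all probe sets) and for 9 in F344 exposure (8.57%, beside 4.83%). Between strains it was found for 14 in room air (13.3%, beside 11.4%) and for 7 in hyperoxia (6.67%, beside 6.64%).

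Of the fibroblast growth factor family, 20 genes, 12 below 0 in SD and 9 in F344, had medians of -0.04 in SD and 0.02 in F344. That list went by family name and was not limited to genes of receptor ligands, and Fgf14 is not one. Their largest differences were -0.23 (SE 0.20) for Fgf22 and 0.22 (SE 0.14) for Fgf17 in SD, and 0.28 (SE 0.12) for Fgf14 and -0.23 (SE 0.14) for Fgf17 in F344. Of 12 epidermal and platelet-derived growth factor ligand genes, the medians were 0.03 and 0.05, with 5 below 0 in SD and 3 in F344. Btc, an epidermal growth factor receptor ligand, read 6.1, 6.0 and 6.1 in F344 hyperoxia, against 5.7 and 5.5 in F344 room air (difference 0.47, SE 0.13, adjusted p = 0.921 by limma), and differed by -0.18 in SD. Pdgfd differed by 0.28 in F344, and Pdgfb by -0.25 and Pdgfa by -0.22 in SD.

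Of the 11 receptor genes, 6 lay below 0 in SD and 8 in F344 (medians -0.02 and -0.22). Pdgfra, the receptor that marks retinal astrocyte precursors, read 5.9 in both SD hyperoxia pools, against 6.0, 6.3 and 6.1 in SD room air. In F344 it read 6.1, 6.2 and 5.9 in hyperoxia, against 6.6 in both room-air pools. Its differences were -0.23 in SD and -0.53 in F344 (SE 0.12 each, adjusted p = 0.815 and 0.921 by limma). Pdgfrb, the pericyte receptor, differed by -0.25 in SD and -0.28 in F344.

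Of 21 measured cascade genes, 8 below 0 in SD and 15 in F344, the medians were 0.03 in SD and -0.05 in F344. Map2k1, which encodes the ERK kinase MEK1, read 8.3 in both SD hyperoxia pools, against 8.8, 8.9 and 8.6 in SD room air. In F344 it read 8.4, 8.6 and 8.5 in hyperoxia, against 8.8 in both room-air pools. The exposed pools lay below the room-air pools in both strains, with differences of -0.47 and -0.30 (SE 0.11 each, adjusted p = 0.536 and 0.921 by limma). Rras differed by -0.43 in SD and -0.05 in F344, and Nf1, the neurofibromin gene, by 0.23 and -0.33.

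Outside the 9 genes, 20 further ERK-induced or feedback genes, 16 below 0 in SD and 10 in F344, had medians of -0.07 in SD and -0.01 in F344. Errfi1, a feedback inhibitor of the epidermal growth factor receptor, differed by -0.30 in SD and 0.07 in F344, and Phlda1 by -0.27 and -0.02. Dusp7, a close relative of Dusp6, differed by -0.20 in SD and 0.27 in F344, and Spry3 by -0.08 and -0.27. Of 21 other ETS factor genes, 14 below 0 in SD and 12 in F344, the medians were -0.08 and -0.03. Ets1, a factor of endothelial and other cells, differed by -0.47 in SD and -0.15 in F344, Elk3 by -0.40 and -0.08, Spdef by -0.10 and -0.23, and Etv6 by 0.05 and -0.20.

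Over the 10 arrays, the gene most like Etv5 by Pearson correlation was Igfbp2, an insulin-like growth factor binding protein gene (r = 0.90, Spearman 0.87), among 2928 genes with an SD of at least 0.2. It was followed by the lactate exporter gene Slc16a3 (r = 0.89), the cytochrome oxidase isoform gene Cox4i2 (0.89), the collagen cross-linking gene Loxl2 (0.89) and the cytokine gene Mif (0.88). Igfbp2 read 6.6 and 6.7 in SD hyperoxia, against 8.4, 8.5 and 8.6 in SD room air. In F344 it read 7.1, 7.4 and 7.5 in hyperoxia, against 8.2 in both room-air pools.

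This likeness lay between the groups: with group means removed, the 5 genes had r between -0.14 and 0.14 with Etv5. Vegfa, whose protein drives vessel growth, came 69th (r = 0.69). Least like Etv5 was Asns, which encodes asparagine synthetase (r = -0.92), with 6.9 and 6.9 in SD hyperoxia, against 6.4, 6.6 and 6.4 in SD room air. In F344 Asns read 6.7, 6.9 and 6.9 in hyperoxia, against 6.6 in both room-air pools. Tsx (r = -0.80) and Defb50 (r = -0.79) came next.

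Among the members, Etv1 came 8th in likeness to Etv5 (r = 0.87), Dusp6 came 30th (r = 0.80) and Spry2 came 258th (r = 0.47). Spry4 (r = 0.86), Etv4 (0.75), Spred1 (0.65), Spred2 (0.61) and Spry1 (-0.01) had an SD below 0.2 and were not ranked. With group means removed, r with Etv5 was 0.51 for Etv1, 0.56 for Etv4, 0.26 for Spry4 and 0.08 for Dusp6. It was 0.41 for Spry1, 0.40 for Spred2, 0.27 for Spred1 and 0.24 for Spry2.

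**Figure D4:**
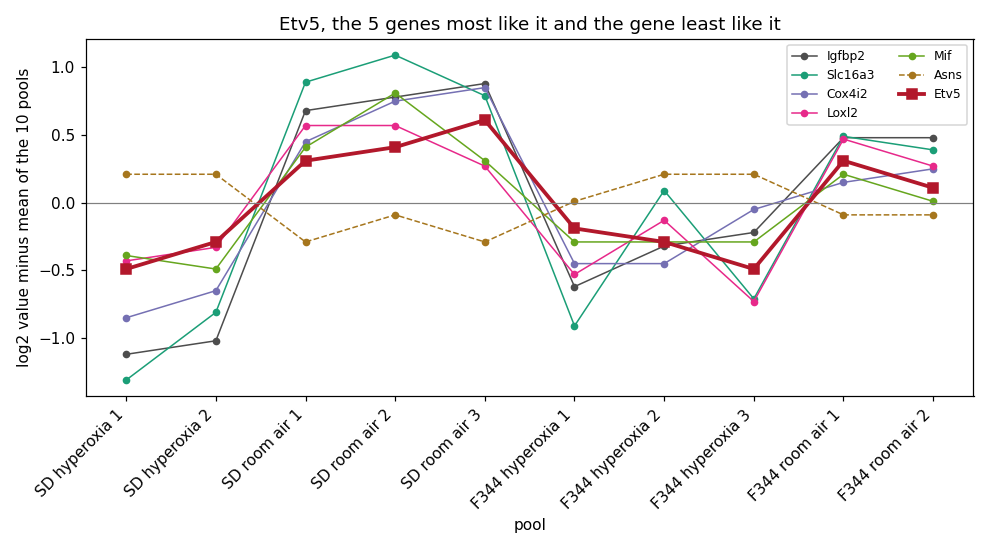
Log2 value minus the gene's mean over the 10 pools (vertical axis) for Etv5, the 5 genes most like it and Asns, by pool. Etv5 lies below its mean in all 5 exposed pools and above it in all 5 room-air pools, and Asns lies above its mean in the exposed pools and below it in the room-air pools.

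Whole retina was measured, so fewer cells of a type and less RNA per cell cannot be told apart. Of all 14324 genes, 46.0% lay below 0 in SD exposure and 48.2% in F344 exposure. Of 10 measured endothelial markers 9 lay below 0 in SD and 10 in F344 (medians -0.34 and -0.32). Their list means were 4.72 to 4.81 in SD hyperoxia against 4.95 to 5.34 in SD room air. In F344 they were 4.76 to 4.86 in hyperoxia against 4.97 to 5.19 in room air. These means lay below the array medians in every pool, and signal over background was not analysed. Of 7 astrocyte and Mueller glia markers 5 lay below 0 in each strain, with list means of 6.59 to 6.63 in SD hyperoxia against 6.63 to 6.7 in SD room air, and of 6.47 to 6.57 in F344 hyperoxia against 6.63 to 6.7 in F344 room air. The 10 progenitor markers had medians of -0.03 in SD and 0.11 in F344. Ganglion cell list means were 8.05 and 8.1 in SD hyperoxia against 8.16, 8.34 and 8.48 in SD room air, and 8.19, 8.26 and 8.58 in F344 hyperoxia against 8.31 and 8.26 in F344 room air. Photoreceptor list means were 9.64 and 9.73 in SD hyperoxia against 9.39, 9.73 and 10.1 in SD room air, and 9.63, 9.61 and 10.1 in F344 hyperoxia against 9.26 and 9.31 in F344 room air. Below 0 lay 6 of 8 ganglion cell markers in SD and 3 in F344, and 5 of 7 photoreceptor markers in SD and 0 in F344. The 7 microglia markers had 5 below 0 in SD and 3 in F344. Microglia list means were 5.67 to 5.81 in SD hyperoxia against 5.84 to 6.01 in SD room air. For F344 they were 5.73 to 5.81 in hyperoxia against 5.73 to 5.77 in room air. The part of these cells in the lower Etv5 and Dusp6 values was not tested.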

How the data were processed

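Retinal RNA of 10 pools was hybridised to Affymetrix whole-transcript rat arrays, 1 pool per array. The authors deposited log2 values per probe set, to 1 decimal; per the submitters' processing notes RMA and Partek 6.4 were used, in roles and an order not stated there. Precision is limited by the small number of arrays, and p-values rest on the spread between pools.

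Of 27342 probe sets, 15097 had 1 gene symbol in the platform annotation, 323 several and 11922 none listed there; a gene was represented by its brightest singly named probe set (mean over the 10 arrays). A limma 3.58.1 fit (R 4.3.3, default eBayes) estimated 4 group means from the 10 arrays, leaving 6 residual degrees of freedom. Its two-sided p-values were adjusted after Benjamini and Hochberg across the table, and 0.05 was the limit. The fit was tested on simulated data. The members and lists were chosen with earlier results of these data known.

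Named were the 9 members, in each list any gene that passed and the 2 with the largest difference per strain, and the 5 genes most and 3 least like Etv5. Igfbp2 and Asns are given by pool as the extremes of that ranking. Vegfa was added with its values known. Alternatives left out dim probe sets, each array in turn or both pools numbered 3; used array weights, a trended robust prior, another quantile step or centring on medians; took 1 probe set or a mean per gene; fitted the compared groups alone; or added the replicate number, or a term for pools numbered 3.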

Additional observations from a re-analysis of the deposited data

Results flagged for a closer look

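Spry1 stood out because every exposed SD pool lay below, and every exposed F344 pool above, the room-air mean of its strain, a difference of the effects of -0.17, SD minus F344, that was not tested. The deviations were -0.13 and -0.03 in SD hyperoxia, and 0.05, 0.05 and 0.15 in F344 hyperoxia, some of them smaller than the 0.1 step of the deposited values. With a term for the pools numbered 3, or without those pools, this difference was 0.05, and without SD room-air pool 3 alone it was 0.02. No group held the 4 arrays needed to look for a single outlying pool.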

How the results depend on the processing

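Under the 21 alternatives, 0 members passed in F344 hyperoxia against room air (adjusted p between 0.533 and 0.979 by limma). Of the members other than Etv5, 0 passed in SD against F344, in room air or in hyperoxia. Of 27 member differences in these comparisons 7 changed sign under some alternative. Those of Etv5 between strains are a description without a test. Spry1 in F344 was -0.025 with the replicate number as a block and with the term for the pools numbered 3. SD minus F344 in hyperoxia turned to 0.042 for Spry4 in both of these fits and to 0.05 without both pools, and in room air Spred2 turned to -0.05 without both. With each array left out, SD minus F344 in hyperoxia ranged from -0.17 to 0.23 for Dusp6, -0.17 to 0.033 for Etv5, -0.05 to 0.067 for Spry2 and -0.10 to 0.05 for Spry4, and in room air from -0.05 to 0.20 for Spred2 and -0.35 to 0.05 for Spry2. The median difference of the hyperoxia effects, -0.12, ranged from -0.22 to -0.083 with each array left out and was -0.05 with the replicate block, with the term for the pools numbered 3 and without both of them. With probe sets below the median level left out, Etv4 and Spry4 drop out, and the SD median was -0.17 with 3 members lower without overlap. Nothing is read from that SD count, which is given without its share over the probe sets kept. Over the lists 3 genes passed with array weights (Erbb4, Fgfr4 and Egfr, between strains) and 1 with the term for the pools numbered 3 (Dusp1, between strains); the cause was not tested. Same-numbered pools of different groups had correlations of their deviations between -0.07 and 0.64 (median -0.0024). Between F344 hyperoxia and SD room air, which are not compared here, the 3 same-numbered pairs had 0.314, 0.397 and 0.643, each pool correlating best with its own number. In the 4 comparisons made here the same-numbered pairs lay between -0.0733 and 0.108, and the numbers were not taken as pairs. Each of these comparisons has a group of 2 pools, whose deviations mirror each other. The pools numbered 3 have no partner in them, so these values say little about pairing. With the replicate block the count of members passing stayed at 0. Depth and signal over background were not analysed, which limits Etv4, Spry4 and the endothelial markers most.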
